A study of Mus musculus with 9 samples.

Results

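The tissue inhibitors of metalloproteinases Timp1, Timp2, Timp3 and Timp4, the matrix metalloproteinases Mmp2, Mmp3, Mmp9 and Mmp14, and the related proteases Adamts1 and Adamts5 were followed through the mouse heart. They were chosen by name, and every probe set annotated to 1 of these 10 symbols and to no other gene was taken. This gave 26 of the 34945 probe sets that name a single gene. Each member stood for 1 of 18193 genes, through its brightest probe set. The 9 arrays measured RNA from mice aged 2 months on the C57BL/6 background, 3 arrays in each of 3 groups. Mutant right atria were Myh6-cre; COUP-TFIIflox/flox. Control right atria and control ventricles were both COUP-TFIIflox/flox without Cre, so the floxed alleles of COUP-TFII (Nr2f2), a nuclear receptor, were shared by all groups. The Myh6 promoter drives Cre in cardiomyocytes, and since no control carried Cre, the presence of the recombinase and the loss of Nr2f2 cannot be told apart. Values are log2 intensities. The labels call the arrays of a group biological replicates, and 3 arrays per group limit the precision of every value.

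Matrix metalloproteinases (MMPs) are zinc enzymes that are made as inactive proenzymes and cut collagens, proteoglycans and other proteins outside the cell once their propeptide is removed. TIMPs bind the active site of MMPs, and Timp3 also inhibits several ADAM and ADAMTS enzymes. Timp2 has a further role, because it holds pro-Mmp2 on the cell surface where Mmp14, a membrane-bound MMP, activates it. ADAMTS proteases carry thrombospondin repeats, and Adamts1 and Adamts5 cleave proteoglycans such as versican. In the heart these enzymes and inhibitors come from fibroblasts, endothelium, leukocytes and cardiomyocytes, and their balance is studied in matrix remodelling. Timp4 is the TIMP best known for its high expression in heart.

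The 250 bases before the transcription start are shown for the TIMP that was highest in ventricle, a TIMP that was higher in atrium, and the stromelysin Mmp3, which differed between all 3 groups, so that the sequence next to the start can be read beside their levels. All are from RefSeq on GRCm38.p6, 5′ to 3′ on the gene's strand: Timp4 at chr6:115252206-115252455 on the minus strand, Timp2 at chr11:118355412-118355661 on the minus strand, and Mmp3 at chr9:7445572-7445821 on the plus strand. Capitals mark matches to GGGCGG, a motif of Sp1 family factors, to TGANTCA, the motif bound by AP-1, and to TATAAA, the TATA box.
Timp4: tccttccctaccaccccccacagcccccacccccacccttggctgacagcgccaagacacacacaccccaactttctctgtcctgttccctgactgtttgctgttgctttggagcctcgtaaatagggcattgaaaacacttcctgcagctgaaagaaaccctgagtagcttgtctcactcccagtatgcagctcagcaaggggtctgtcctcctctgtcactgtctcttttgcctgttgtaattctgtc
Timp2: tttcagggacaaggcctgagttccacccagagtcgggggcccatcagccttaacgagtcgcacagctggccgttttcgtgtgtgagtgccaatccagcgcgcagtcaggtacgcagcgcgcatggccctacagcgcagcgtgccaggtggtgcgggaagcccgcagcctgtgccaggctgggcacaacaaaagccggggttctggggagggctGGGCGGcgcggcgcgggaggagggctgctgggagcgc
Mmp3: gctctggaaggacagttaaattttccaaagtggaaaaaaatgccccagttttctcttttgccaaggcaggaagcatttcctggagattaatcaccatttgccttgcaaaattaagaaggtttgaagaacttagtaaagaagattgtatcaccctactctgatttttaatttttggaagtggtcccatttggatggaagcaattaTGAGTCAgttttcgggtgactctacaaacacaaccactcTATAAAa
Promoters were matched for 7 of the 10 members (Timp1, Timp2, Timp3, Timp4, Mmp3, Mmp14 and Adamts1). The half-site of nuclear receptors such as COUP-TFII, AGGTCA, was searched on both strands, as were the other motifs, and it stood in 14.0% of 32851 RefSeq promoters of the same length. No match to it was found in these windows of the 7 members. The Mmp3 window held TGAGTCA 46 to 40 bases before the start, a match to TGANTCA, which 6.75% of all promoters contain. TATAAA, found in 12.4% of all promoters, stood in Mmp3 at 7 to 2 bases before the start and in Adamts1 at 32 to 27. GGGCGG, found in 32.7% of all promoters, occurred 3 times in Adamts1, 2 times in Mmp14 and once each in Timp1, Timp2 and Timp3. The Timp4 window held no match to any of the 4 motifs. The windows also differed in base composition: GC content was 68.0% with 21 CpG dinucleotides in Timp2, 53.6% with 2 in Timp4 and 37.6% with 1 in Mmp3, against medians of 52.4% and 6 over all promoters. A match describes the letters only, and no binding was measured.

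The arrays were alike in brightness, with median linear intensities of 80.9 to 83.4. Nr2f2 itself lay between 6.62 and 6.82 in mutant atria, between 7.29 and 7.66 in control atria and between 5.34 and 5.96 in ventricles, so that mutants were lower than control atria by a log2 difference of -0.74 ± 0.15 (SE; limma, adjusted p = 0.0109). Genes of liver cells read far higher in the control atria (mean of 9 hepatocyte genes 10.38, 9.63 and 7.86 in replicates 1, 2 and 3) than in mutant atria (5.57 to 5.62) or ventricles (5.31 to 5.44). The 10 mesothelial genes averaged 6.53 to 6.87 in ventricles, 7.88 to 8.01 in mutants and 9.23 to 9.53 in control atria. Sex-linked genes differed within and between groups. The Y-linked mean was 3.73, 8.84 and 8.84 in mutant replicates 1, 2 and 3. It was 5.22, 8.81 and 8.33 in control atria and 3.78 to 3.85 in ventricles. All 3 ventricles also had high Xist (11.80 to 11.87), so sex and chamber are partly confounded in both comparisons with ventricle. Control atrium 3 read high in both Xist (10.91) and the Y-linked mean (8.33). The other control atria were partly mixed too. Control atrium 1 had Xist of 12.73 with a Y-linked mean above that of mutant 1 and the ventricles. Control atrium 2 had Xist of 8.55, against 6.73 and 6.48 in mutants 2 and 3. The cause was not tested. RNA quality, read from the difference between 3′ and 5′ Gapdh probe sets, went from 0.153 to 0.227 in ventricles over 0.214 to 0.304 in mutants to 0.345 to 0.364 in control atria. The part of the RNA quality in the results was not tested. Differences below are from limma fitted over all genes, with SE, 95% interval and Benjamini-Hochberg adjusted p, and a gene was called at an adjusted p under 0.05. The 3 comparisons share groups of arrays, so they are not independent of one another.

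Between control ventricle and control right atrium, 6 members were lower in ventricle (Timp1, Timp2, Timp3, Mmp3, Mmp14 and Adamts1) and 2 were higher (Timp4 and Adamts5), where 52.8% of all genes passed the test, 29.2% higher and 23.6% lower in ventricle. Between mutant and control right atrium, Timp4, Mmp2 and Mmp3 were higher in the mutants and the other 7 members did not pass, where 17.5% of all genes did, 7.76% higher and 9.79% lower in the mutants. Between mutant atrium and control ventricle, 7 members were higher in the mutant atrium and 1, Timp4, was lower, where 32.7% of all genes passed, 16% higher and 16.7% lower. Arrays of the groups did not overlap for 8 members between ventricle and control atrium (59.7% of all genes), for 5 between mutant and control atrium (37.8%) and for 8 between mutant atrium and ventricle (47.4%). The median log2 difference of the 10 members was -0.37 for ventricle minus control atrium (0.07 over all genes) and 0.17 for mutant minus control atrium (0.03 over all genes). In bulk tissue, fewer cells of a type and less RNA per cell cannot be told apart.

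**Figure D1:**
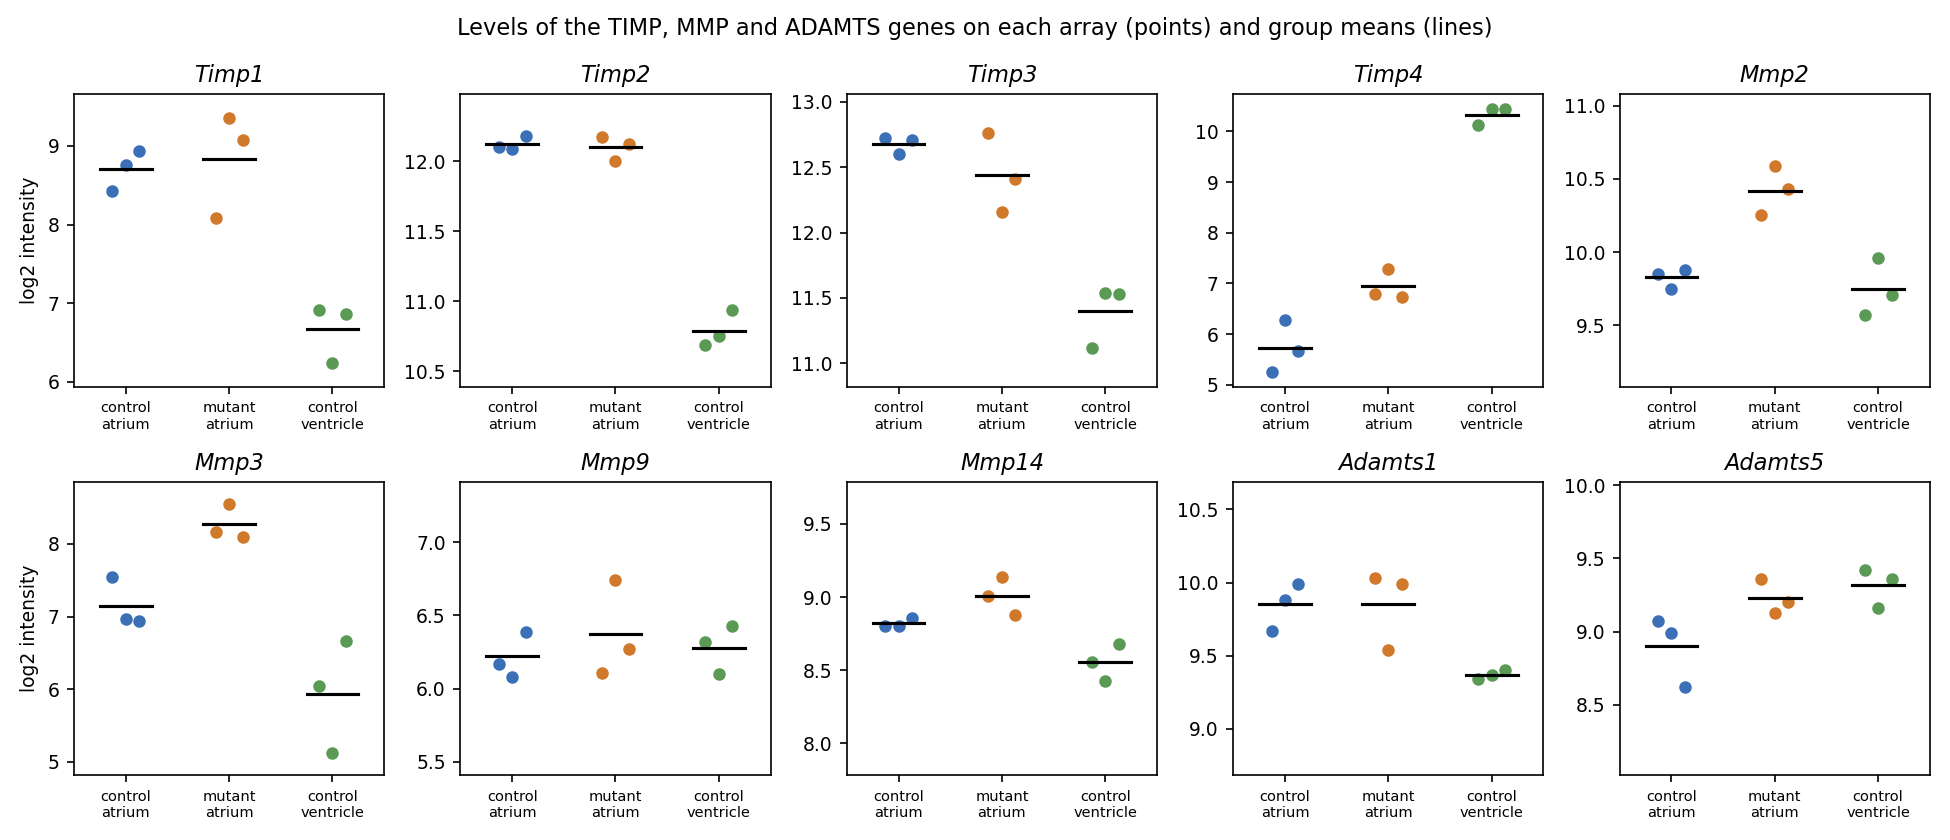
Log2 intensity of the 10 members on each of the 9 arrays, by group (mutant right atrium, control right atrium, control ventricle; 3 arrays each), with group means as lines. Timp4 is lowest in control atria (5.26 to 6.27) and highest in ventricles (10.13 to 10.44), and Mmp2 is highest in mutant atria (10.25 to 10.59).

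Timp4 read 6.79, 7.28 and 6.74 in mutant atria, 5.26, 6.27 and 5.66 in control atria, and 10.13, 10.44 and 10.44 in ventricles. No array of any group overlapped another group, and the order was ventricle, mutant atrium, control atrium. The mutants exceeded the control atria by 1.20 ± 0.24, or 2.3-fold (95% interval 0.67 to 1.73; limma, adjusted p = 0.00875). This difference rested on dim values, above all in the control atria. For scale, the Y-linked genes averaged 3.78 to 3.85 in the ventricles. The mutant atria stayed below ventricle by 10.5-fold (-3.40 ± 0.24; adjusted p = 9.5e-06), and the control atria by 24.3-fold (adjusted p = 6.57e-07). The second Timp4 probe set, 1450974_at, gave 6.51, 6.61 and 6.57 in mutant atria, 5.85, 6.08 and 6.27 in control atria, and 8.94, 9.29 and 9.31 in ventricles. Its fold differences from ventricle were 6.12 for the mutants and 8.66 for the control atria, so the size of the Timp4 difference depends on the probe set. It kept the order, with a smaller mutant difference of 0.50 ± 0.12 (limma over probe sets, adjusted p = 0.0254) that lost its call without mutant 2, mutant 3, control atrium 1 or control atrium 2 (adjusted p = 0.0701 to 0.0851). Markers of ventricular muscle moved with Timp4: the mean of 6 such genes was 11.49 to 11.64 in ventricles, 10.84 to 11.15 in mutant atria and 8.90 to 9.17 in control atria, and 5 of 6 were called higher in the mutants and 1 lower. Smooth muscle and pericyte genes had the same order, with means of 9.99 to 10.26 in ventricles, 9.55 to 9.69 in mutants and 9.28 to 9.47 in control atria. Of these 10 genes, 8 were called higher in ventricle than in control atrium (1 lower), and 6 higher in mutants than in control atria (1 lower). The part of either list in the Timp4 differences was not tested.

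Timp2, the partner of pro-Mmp2, was 12.17, 12.00 and 12.12 in mutant atria, 12.10, 12.09 and 12.18 in control atria, and 10.69, 10.75 and 10.94 in ventricles. The ventricles lay below every atrial array, while the mutant and control atria overlapped. Ventricle was lower than control atrium by 2.51-fold (-1.33 ± 0.08; limma, adjusted p = 1.64e-06). For mutant against control atrium the interval of the log2 difference was -0.20 to 0.16 (adjusted p = 0.858). Probe set 1460287_at of the same gene did differ there, with 11.41, 11.45 and 11.64 in mutants and 11.91, 11.98 and 11.94 in controls (-0.44 ± 0.09; adjusted p = 0.0107). The other 5 Timp2 probe sets had mutant differences from -0.05 to 0.14 that did not pass, so the probe sets of Timp2 disagreed on this comparison. One of these 5, 1437081_at, was dim on all arrays (4.47 to 5.17) and was the exception in the chamber comparison, at 0.27 ± 0.12 for ventricle minus control atrium (adjusted p = 0.0954).

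Timp3, the TIMP that stays bound to the matrix, was 12.76, 12.16 and 12.41 in mutant atria, 12.72, 12.60 and 12.71 in control atria, and 11.12, 11.54 and 11.53 in ventricles. Both atrial groups lay above all ventricles, and they overlapped each other. Ventricle was 2.43-fold lower than control atrium (-1.28 ± 0.16; limma, adjusted p = 0.00014). All 4 Timp3 probe sets were lower in ventricle, by -0.89 to -1.47. The mutant minus control difference did not pass, with an interval of -0.58 to 0.12 (adjusted p = 0.335).

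Timp1, the inducible TIMP, was 8.09, 9.36 and 9.08 in mutant atria, 8.43, 8.76 and 8.93 in control atria, and 6.91, 6.24 and 6.87 in ventricles. It had the widest spread among the mutants of any member (SD 0.67). Ventricle was 4.09-fold lower than control atrium (-2.03 ± 0.31; limma, adjusted p = 0.000507), and the interval for mutant minus control atrium was -0.55 to 0.83 (adjusted p = 0.787). Timp1 lies on the X chromosome, and its lowest value in each atrial group fell on replicate 1, the array with the highest Xist of its group (12.48 in mutants and 12.73 in control atria). The remaining control atria did not keep that order, since replicate 3 had the higher Xist (10.91 against 8.55) and also the higher Timp1 (8.93 against 8.76). All 3 ventricles also had high Xist, 11.80 to 11.87. With the Y-linked mean as a covariate, the ventricle difference of Timp1 was -1.34 and still passed (adjusted p = 0.00333).

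Against the ventricles, the mutant atria were 4.5-fold higher in Timp1, 2.47-fold in Timp2 and 2.07-fold in Timp3 (limma, adjusted p = 0.000572, 5.19e-06 and 0.00079). Each of these inhibitors was thus higher in both atrial groups than in ventricle, and the atrial groups overlapped one another.

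Many, but not all, markers of stromal and endothelial cells moved with these 3 TIMPs between the chambers. Of 10 fibroblast genes, 7 were called lower in ventricle and 1 higher, and their mean was 10.17 to 10.40 in ventricles against 10.62 to 10.70 in control atria and 10.87 to 11.00 in mutant atria. Of 10 endothelial and endocardial genes, 6 were called lower in ventricle and 4 did not pass, with means of 9.30 to 9.43 against 10.48 to 10.57 in control atria. The list was uneven. Npr3 (11.95 in control atria, 7.63 in ventricles) and Vwf (12.41 and 9.45) fell most. Cdh5 (9.7 and 9.88), Kdr (9.94 and 10.24) and Esam (10.66 in both) were not lower. These genes were named after their values were seen. All 10 mesothelial genes were called lower in ventricle as well. So were 4 of 10 macrophage genes, whose mean was 8.97 to 9.44 in ventricles against 9.63 to 9.78 in control atria, and 8 of 8 atrial muscle genes, with a median difference of -4.67. Their part in the TIMP differences was not tested.

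Among the proteases, Mmp2, the gelatinase that Mmp14 activates, was 10.25, 10.59 and 10.43 in mutant atria, 9.85, 9.75 and 9.88 in control atria, and 9.57, 9.96 and 9.71 in ventricles. Each mutant array exceeded all control arrays of both tissues. The mutants exceeded the control atria by 1.51-fold (0.60 ± 0.11, 95% interval 0.34 to 0.85; limma, adjusted p = 0.00753) and the ventricles by 1.6-fold (0.68 ± 0.11; adjusted p = 0.00161). Ventricle and control atrium overlapped, with an interval of -0.33 to 0.18 for their difference (adjusted p = 0.579). The second Mmp2 probe set, 1416136_at, read 9.99, 10.41 and 10.21 in mutants and 9.69, 9.60 and 9.62 in control atria. They differed by 0.57 ± 0.14 (adjusted p = 0.0286), a call that was lost without mutant 2, mutant 3 or any 1 of the 3 control atria (adjusted p = 0.0632 to 0.101).

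Mmp3, stromelysin, which cuts proteoglycans and can activate other pro-MMPs, was 8.17, 8.55 and 8.10 in mutant atria, 7.55, 6.97 and 6.94 in control atria, and 6.04, 5.12 and 6.67 in ventricles. The 3 groups did not overlap, and the ventricles were widely spread (SD 0.78). The mutants exceeded the control atria by 2.18-fold (1.12 ± 0.33, interval 0.37 to 1.87), a call close to the threshold (limma, adjusted p = 0.0464). It passed under 9 of 21 alternatives and was lost without any 1 of the 3 mutants, the 3 control atria or ventricle 1, where the difference was 0.98 to 1.32 (adjusted p = 0.0572 to 0.14). It was also lost with an intensity trend (0.0823) and with quantile normalisation (0.0543). Ventricle was lower than control atrium by 2.31-fold (-1.21 ± 0.33; adjusted p = 0.0138), a call lost without control atrium 1 (-1.01; adjusted p = 0.0559). With the Y-linked covariate both this call (-1.32; 0.053) and that of mutant against control atrium (1.11; 0.0612) were lost. The mutants exceeded the ventricles by 5.03-fold (2.33 ± 0.33; adjusted p = 0.000632). The ventricle values of Mmp3 were dim, down to 5.12, so the sizes of both differences from ventricle are uncertain. Only 1 probe set measures Mmp3.

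Mmp14, the membrane-bound activator of pro-Mmp2, was 9.01, 9.14 and 8.88 in mutant atria, 8.80, 8.80 and 8.86 in control atria, and 8.56, 8.43 and 8.68 in ventricles. The order mutant atrium, control atrium, ventricle held without overlap, but the 0.19 ± 0.09 between mutant and control atrium did not pass (interval 0 to 0.38; limma, adjusted p = 0.155). In the brightest probe set the mutants exceeded the ventricles by 1.37-fold (0.45 ± 0.09; adjusted p = 0.00309). The other 2 probe sets gave -0.08 and 0.03 there and did not pass, and averaging the 3 probe sets ended the call (0.13; adjusted p = 0.14). For ventricle minus control atrium, the brightest probe set gave -0.26 ± 0.09 (adjusted p = 0.0289) and the dimmer probe set 1416572_at gave the opposite sign, 0.28 ± 0.07 (adjusted p = 0.0135). The latter read 6.34, 6.24 and 6.31 in mutants and 5.99, 5.97 and 6.02 in control atria. They differed by 0.30 ± 0.07 (adjusted p = 0.0254), a call lost without any 1 of the 3 mutants, control atrium 1 or control atrium 2 (0.0503 to 0.0807). The direction of Mmp14 between the chambers therefore depends on the probe set, and the mean of all 3 gave 0.06 (adjusted p = 0.41). The negative value of the brightest probe set was also lost without any 1 of the 3 control atria, ventricle 1 or ventricle 2 (adjusted p = 0.0576 to 0.0975) and with the Y-linked covariate (-0.25; 0.126), and was -0.12 with median centring (0.222) or quantile normalisation (0.285).

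Mmp9, the gelatinase typical of neutrophils and macrophages, was 6.11, 6.74 and 6.27 in mutant atria, 6.17, 6.08 and 6.39 in control atria, and 6.32, 6.10 and 6.43 in ventricles. All groups overlapped, and the gene lay among the dimmest 40% of genes. The interval for mutant minus control atrium was -0.20 to 0.51 (limma, adjusted p = 0.526), and for ventricle minus control atrium -0.29 to 0.42 (adjusted p = 0.743). The second Mmp9 probe set gave 0.07 and -0.03 for these differences. Neutrophil genes were likewise low, with a mean over 9 genes of 5.47 to 5.66 in mutants, 5.36 to 5.43 in control atria and 5.62 to 5.77 in ventricles. Of these 9, 6 were called higher in ventricle than in control atrium and 0 lower. Macrophage genes were not low: their mean was 9.90 to 10.44 in mutants and 9.63 to 9.78 in control atria, and 5 of 10 were called higher in the mutants. The part of macrophage, fibroblast (2 of 10 called higher) and smooth muscle genes (6 of 10 called higher, 1 lower) in the Mmp2 and Mmp3 differences was not tested.

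Adamts1, a protease of versican and other proteoglycans, was 10.03, 9.54 and 9.99 in mutant atria, 9.67, 9.88 and 9.99 in control atria, and 9.34, 9.37 and 9.40 in ventricles. The atrial groups overlapped, and the ventricles lay below both. Ventricle was lower than control atrium by 1.4-fold (-0.48 ± 0.13; limma, adjusted p = 0.0117), and the interval for mutant minus control atrium was -0.28 to 0.29. The mutants exceeded the ventricles by 1.4-fold as well (0.49 ± 0.13; adjusted p = 0.017), a call lost without mutant 1 (0.0594) or mutant 3 (0.0649) and with the Y-linked covariate (0.53; 0.0558). Adamts5, its closest protein-coding neighbour on chromosome 16 in RefSeq, had another pattern: 9.36, 9.13 and 9.20 in mutant atria, 9.07, 8.99 and 8.62 in control atria, and 9.42, 9.16 and 9.36 in ventricles. Here the control atria lay below both other groups, which overlapped. Ventricle exceeded control atrium by 1.34-fold (0.42 ± 0.12; adjusted p = 0.018), and the mutant difference of 0.34 ± 0.12 did not pass (interval 0.06 to 0.61; adjusted p = 0.0922). With the Y-linked mean as a covariate the ventricle call of Adamts5 was lost (0.25; adjusted p = 0.207), as it was with the mean of all probe sets (0.25; 0.0727) and without ventricle 1 (0.0611) or ventricle 3 (0.052). With the hepatocyte mean as a covariate it was kept, at 1.16. The other 3 Adamts5 probe sets gave mutant differences of 0.29, 0.09 and -0.04 and ventricle differences of 0.33, 0.22 and 0.03 from control atrium, and did not pass in either comparison (adjusted p = 0.103 to 0.784). The last of them was dim on all arrays, at 3.65 to 3.88.

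**Figure D2:**
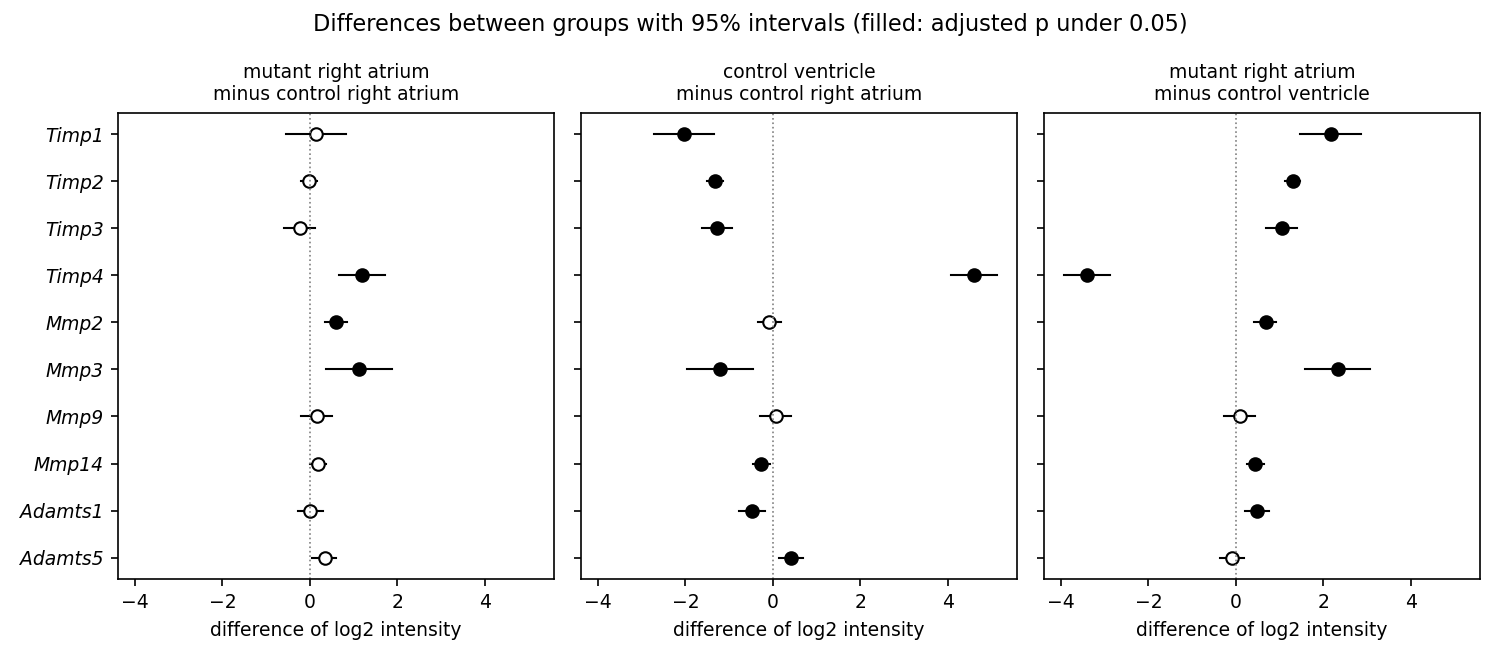
Log2 difference of each member with its 95% interval from limma for the 3 comparisons, with filled points for an adjusted p under 0.05. In mutant minus control right atrium, the filled points are Timp4 (1.20), Mmp3 (1.12) and Mmp2 (0.60). In the chamber comparison Timp4 (4.60) stands on the other side of 0 from Timp1, Timp2 and Timp3.

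The mutant-against-control calls of Timp4, Mmp2 and Mmp3 share a limit set by the liver transcripts of the control atria. With the hepatocyte mean as a covariate, the differences were 0.94 (adjusted p = 0.714), 0.49 (0.676) and 1.94 (0.526), and the median SE over all genes rose from 0.0879 to 0.225. In that fit 65 genes in all passed. Between ventricle and control atrium, where the same control arrays enter, Timp1 (-2.68; adjusted p = 0.13), Timp3 (-1.37; 0.144), Mmp3 (-0.35; 0.908), Mmp14 (-0.35; 0.521) and Adamts1 (-0.94; 0.169) also lost their calls with this covariate. The hepatocyte genes lay apart between these groups, so the covariate and the genotype cannot be told apart well.

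**Figure D3:**
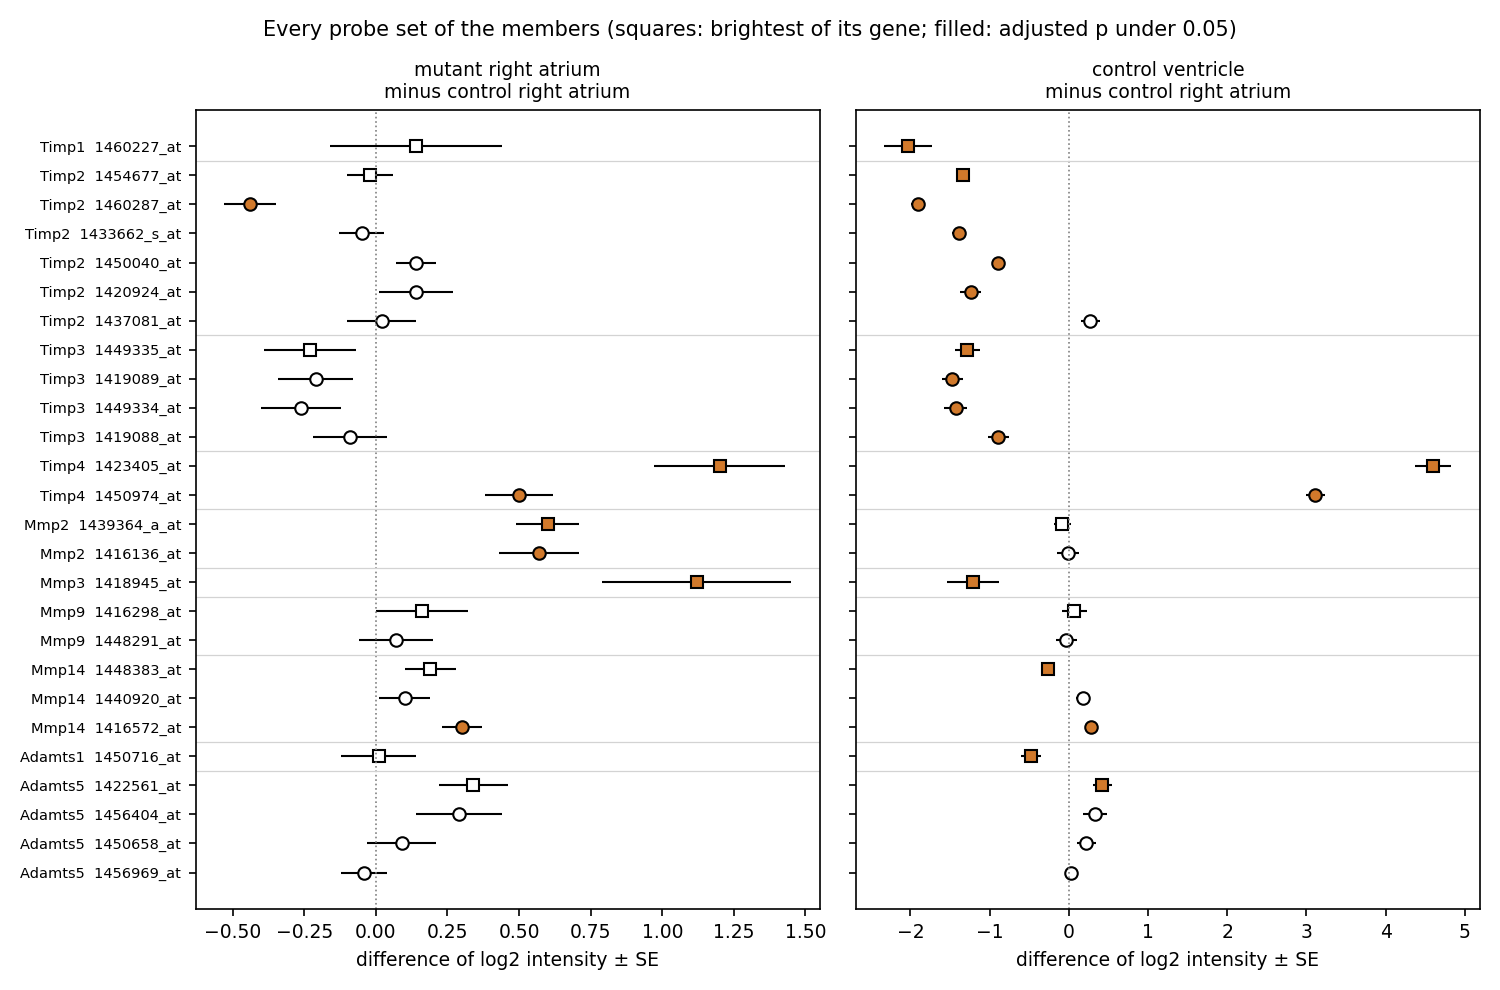
Log2 difference of each of the 26 member probe sets between mutant and control right atrium and between control ventricle and control right atrium, from a limma fit over 34945 probe sets. Bars are ± SE, squares mark the brightest probe set of a gene and filled symbols an adjusted p under 0.05. The Timp4 and Mmp2 probe sets fall to the right of 0 for the mutants, while only 1 of the 6 Timp2 probe sets (1460287_at, -0.44) is called lower.

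Over all 26 probe sets, 6 were called higher and 1 lower in mutant than in control atria, where 13.9% of 34945 probe sets passed, 5.86% higher and 8.05% lower. Between ventricle and control atrium 4 were called higher and 13 lower, where 47.2% passed, 25.7% higher and 21.5% lower. Between mutant atrium and ventricle 15 were called higher and 2 lower, where 27.5% passed, 13.4% higher and 14.1% lower. Probe sets of 1 gene share their transcripts and are not independent.

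Other genes of matrix proteolysis were grouped into 7 lists. Between mutant and control atrium most did not pass, where 7.76% of all genes were called higher and 9.79% lower. Of 12 other MMPs, 1 rose: Mmp7, matrilysin (0.29 ± 0.07; limma, adjusted p = 0.0222). Of 19 other ADAMTS and ADAMTS-like genes, Adamts12 (0.40) and Adamts10 (0.25) rose and Adamts6 fell (-1.17 ± 0.22; adjusted p = 0.00726), with a list median of 0.25. Of 14 ADAM proteases and rhomboids, Adam8 rose (0.34) and Adam19 fell (-1.02). Among 16 activators, the collagen-cutting cathepsin gene Ctsk (0.62 ± 0.10; adjusted p = 0.00322) and Bsg, an inducer of MMPs, rose, and Plg (-2.57) and Klkb1 (-0.69), both proteases that circulate from liver, fell. Of 10 other inhibitors and clearance genes, Cst3 rose (0.25) and Pzp, another liver product, fell (-2.98). Plg in the control atria was 8.37, 7.38 and 6.10 and Pzp was 9.81, 9.36 and 7.87, in the same order as the hepatocyte mean given above. The calls of Mmp7, Adamts12, Adam8 and Cst3 were each lost without any 1 of at least 4 arrays (adjusted p = 0.0564 to 0.151), and that of Adam19 without control atrium 1 (0.0503). In the atria Mmp7 (5.92 to 6.31), Adamts12 (6.19 to 6.72) and Adam8 (5.50 to 6.02) were about as dim as Mmp9 or dimmer, which limits their calls. Adamts10, Bsg and Klkb1 were chosen after their values were seen, and their calls here were not followed under the alternatives. That of Adamts10 lay at the threshold (limma, adjusted p = 0.0499).

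Among 24 matrix substrates, versican was the largest rise. Vcan, a proteoglycan cut by Adamts1 and Adamts5, was 9.72, 10.29 and 9.66 in mutant atria, 8.41, 8.42 and 8.67 in control atria, and 8.10, 8.04 and 8.28 in ventricles. Mutants did not overlap the control atria and exceeded them by 2.62-fold (1.39 ± 0.16; limma, adjusted p = 0.000508). Lum (0.40) and Hspg2 (0.34) also rose, and Fmod, fibromodulin, fell (-1.38 ± 0.31; adjusted p = 0.0158), a call lost without mutant 2 (0.0562) or control atrium 2 (0.0577). Of 22 inducers, Hbegf (0.93 ± 0.12; adjusted p = 0.00106), Tgfb2 (0.53), Pdgfb (0.49) and Edn1 (0.36) rose, and Egf (-1.28 ± 0.23; adjusted p = 0.00621) and Il6 (-0.77) fell. With the hepatocyte covariate the mutant calls of Vcan (1.00; adjusted p = 0.469), Hbegf (0.54; 0.625), Egf (-1.10; 0.646), Fmod (-1.18; 0.73), Adamts6 (-0.59; 0.818), Adamts12 (0.58; 0.522), Adam19 (-1.37; 0.546), Cst3 (0.39; 0.582) and Pzp (-0.11; 0.964) were lost, while that of Ctsk was kept. Lum, Hspg2, Edn1, Il6 and, in this comparison, Tgfb2 and Pdgfb were chosen after their values were seen. Their calls in mutant against control atrium were not followed under the alternatives. That of Il6 was close to the threshold (limma, adjusted p = 0.0485).

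Between ventricle and control atrium, 7 of 10 other inhibitors and clearance genes were lower in ventricle, with a median of -0.85. Over all genes, 29.2% were called higher and 23.6% lower. The 7 include the liver product Pzp (-2.49), which was high in the control atria as the hepatocyte genes were. They included Reck, a membrane-anchored inhibitor of MMPs (-1.42 ± 0.13; limma, adjusted p = 2.15e-05). Also counted in this list was Fbln1, fibulin-1, a cofactor of Adamts1 rather than an inhibitor (-2.19 ± 0.15; adjusted p = 3.7e-06). Adamts15 was the clearest difference among the other ADAMTS genes and was 3.26-fold lower in ventricle (adjusted p = 4.63e-07), while Adamts9 was 2.39-fold higher (adjusted p = 0.000127). These lists gave 7 higher and 6 lower of 19 ADAMTS genes, and 5 higher (Mmp7, Mmp8, Mmp10, Mmp19 and Mmp24) and 2 lower (Mmp11 and Mmp23) of 12 MMPs, of which Mmp7 was 0.58 higher and Mmp23 had a difference of -1.38. Mmp7 was dim, at 5.92 to 6.62 over all arrays. Of the dim neutrophil genes, 6 of 9 were likewise called higher in ventricle and 0 lower, with a median of 0.25. The part of low signal in the MMP calls was not tested. Of the ADAM proteases and rhomboids, 2 (Adam17 and Rhbdf2) were higher and 6 lower of 14, with Adam10 at -0.67 and Adam11 at -0.71. The activators were 4 higher (Bsg, Pcsk6, St14 and Hpn) and 8 lower of 16. The substrates were 4 higher (Col4a1, Col4a2, Hspg2 and Tnc) and 9 lower of 24. The inducers were 4 higher (Pdgfb, Hbegf, Ets1 and Fosl1) and 8 lower of 22. Mmp8, Mmp10, Mmp11, Mmp19, Mmp24, Adam17, Rhbdf2, Pcsk6, St14, Hpn, Col4a1, Col4a2, Hspg2, Tnc, Hbegf, Ets1 and Fosl1 were named for these counts after their values were seen. Substrates Bgn (-1.44) and Dcn (-0.73) were lower, as was Tgfb3 (-1.40). Fmod, which also fell in the mutants, was 12.6-fold lower in ventricle (-3.65; limma, adjusted p = 1.4e-05). It was named for this comparison after its value was seen, and this call was not followed under the alternatives. With the hepatocyte covariate the chamber calls of Reck (-1.16; adjusted p = 0.124), Adamts9 (0.53; 0.496), Mmp7 (0.27; 0.452), Adam10 (-0.34; 0.494), Adam11 (-0.85; 0.196), Bsg (0.70; 0.105) and Pdgfb (0.88; 0.243) were lost. List medians ran from -0.85 for the other inhibitors and clearance genes to 0.25 for the other MMPs, beside 0.07 over all genes.

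In mutant atrium against ventricle, 6 of 10 other inhibitors and clearance genes were higher in the mutant atrium. Among them were the Adamts1 cofactor Fbln1 (2.09) and the scavenger receptor Lrp1 (1.24 ± 0.10; limma, adjusted p = 1.7e-05). Of 24 substrates, 10 were higher. So were 7 of 19 ADAMTS genes (5 lower), 6 of 16 activators (3 lower), 7 of 22 inducers (3 lower) and 3 of 14 ADAM genes (1 lower), and of 12 other MMPs Mmp23 was higher and Mmp7 lower. Over all genes, 16% were called higher and 16.7% lower in this comparison. Adamts15 was 3.91-fold higher (adjusted p = 5.95e-07), and Ctsk exceeded ventricle by 1.41 ± 0.10 (adjusted p = 1.06e-05).

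**Figure D4:**
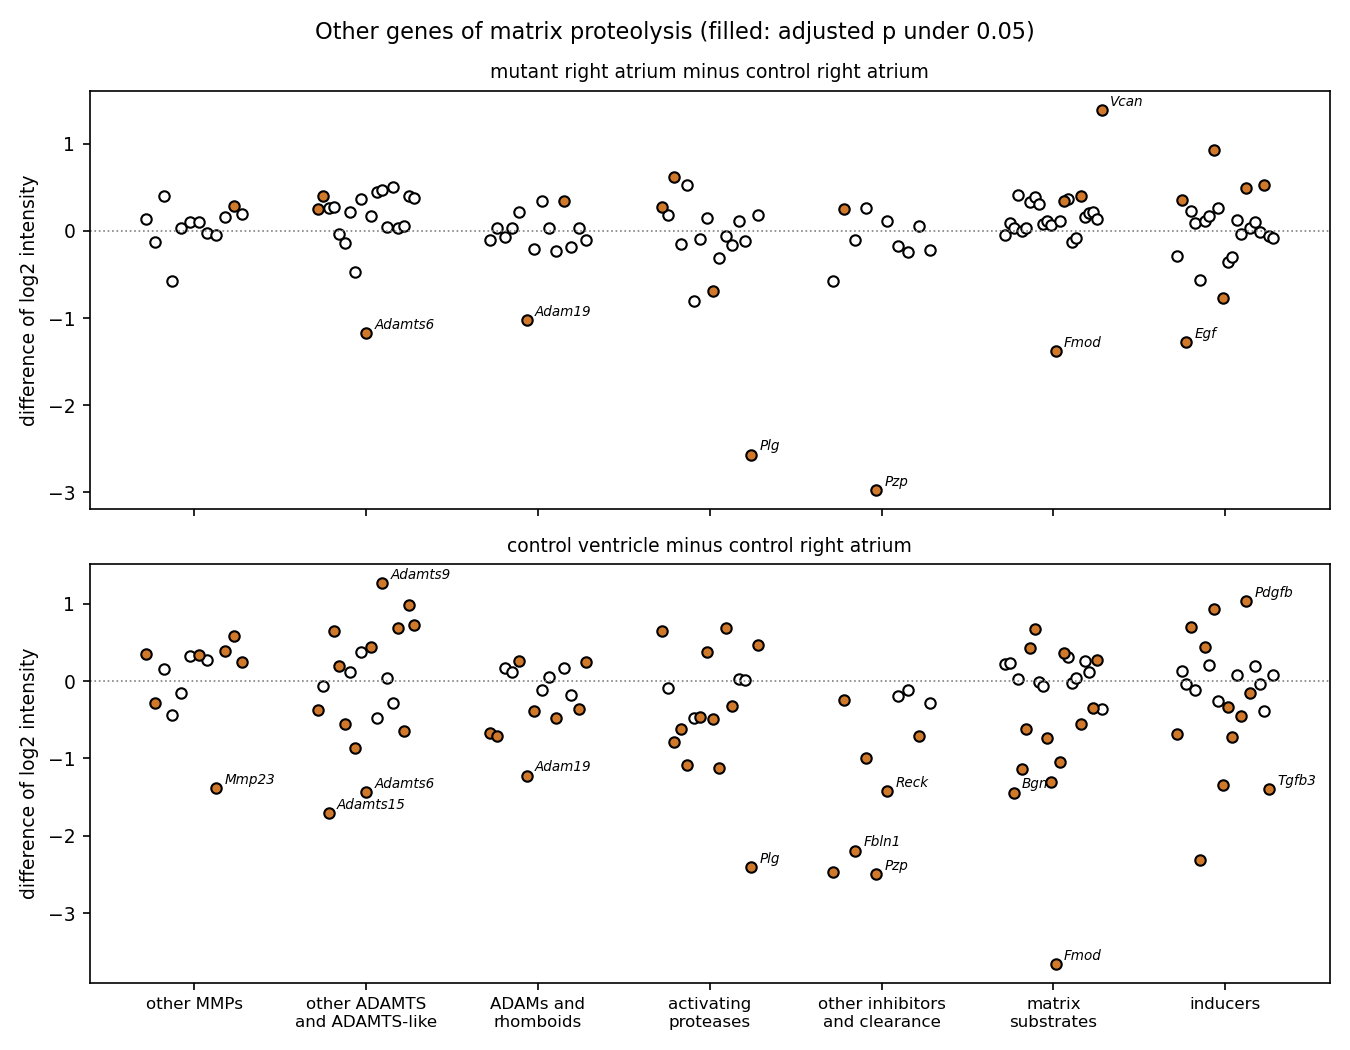
Log2 differences of the measured genes of the 7 lists in mutant minus control right atrium and in control ventricle minus control right atrium, filled for an adjusted p under 0.05. Labels are given to genes named under the naming rule with a difference of at least 1 in size. Vcan (1.39) lies highest in the first panel, and Pzp (-2.98) and Plg (-2.57) lie lowest.

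Over the 9 arrays, the genes whose log2 level most resembled a member were found among 1574 genes whose group means span at least 1. The arrays fall into 3 groups, so these correlations mostly follow the group means, and no p is given. For Timp2 they were Fbln1 (r = 0.997), Cyp1b1 (0.996) and Vit (0.995). For Timp3 they were Antxr1 (0.988), Ramp2 (0.988) and Ptpn14 (0.986). For Timp1 they were Serping1 (0.976), Fbxl16 (0.973) and Hsbp1l1 (0.972). For Timp4 they were Txnrd2 (0.997), Fam210a (0.996) and Kmt5a (0.996), and for Mmp3 they were Pirt (0.967), Shisa4 (0.966) and Col14a1 (0.966).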

How the data were processed

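Each of the 9 arrays, 3 per group, received RNA labelled with a 3' IVT kit, per the labels' protocols. How many animals gave the RNA of an array was not tested. Control atrium 3 read high in both Xist (10.91) and the Y-linked mean (8.33). The deposited values are a linear intensity per probe set, made by the authors with RMA (version not given in the sources used here), per the submitters' processing notes. Their log2 was taken with no further normalisation.

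Of 45101 probe sets, 64 controls, 932 naming several genes and 9160 naming none were left out, giving 34945. Names came from the array's platform annotation. The brightest probe set stood for each of 18193 genes. Groups were fitted in 1 limma 3.58.1 model in R 4.3.3 (6 residual and 3.48 prior degrees of freedom) and tested with Benjamini-Hochberg adjustment, threshold 0.05. A separate fit used all probe sets. The members and lists were chosen with earlier results of these data known. Named genes were the members with all their probe sets, Nr2f2, up to 2 non-overlapping genes per list and comparison with the smallest p, and the 3 genes most correlated with each member that spans at least 1. List genes measured were 214 of 233, marker lists included.

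In a test on simulated data for mutant against control atrium over 18193 genes, 71 of 100 genes changed 1.5-fold and 92 of 100 changed 2-fold were recovered, with 6 false calls. Motifs were searched in RefSeq promoters (GRCm38.p6). Alternatives are given in the closing section. Python 3.11.15 (pandas 2.3.3, matplotlib 3.10.9) prepared the tables and drew the figures.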

Additional observations from a re-analysis of the deposited data

How the results depend on the processing

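The 9 arrays were fitted under 21 alternatives, 12 settings and the omission of each array in turn. Over the member genes 563 results kept direction and side of the threshold, 38 lost the call, 1 gained it and 25 changed sign. Counts of called genes were 3192 for mutant against control atrium, 9615 for ventricle against control atrium and 5956 for mutant atrium against ventricle. With every probe set on its own they were 4861, 16492 and 9612, since more features were tested. With the hepatocyte mean as covariate the first were 65 and 971. Leaving out 1 array gave 1832 to 3074 in mutant against control atrium, 1832 without mutant 2, 1972 without control atrium 1, 1990 without mutant 3 and 2013 without control atrium 2. Median centring moved the median of all genes from 0.071 to 0.207 for ventricle minus control atrium and from -0.051 to -0.152 for mutant atrium minus ventricle. The share of called genes that were higher went from 55.3% to 74.1% and from 48.9% to 27.6%, and from 44.2% to 54.7% for mutant against control atrium.

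Replicate numbers do not pair the samples: deviations of same-numbered arrays correlated at -0.102 to 0.125, and those of other arrays at -0.156 to 0.145. With a replicate block, Mmp3 in mutant against control atrium (1.12, adjusted p = 0.0695) and Mmp14 in ventricle against control atrium (-0.26, 0.0554) lost their calls.

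Among called results, the sign turned for Mmp14 between chambers with the mean of all probe sets (0.06) and, with the hepatocyte covariate in mutant against control atrium, for Mmp7 (-0.01), Adam8 (-0.07) and Plg (0.64). The other sign changes were in differences that did not pass. With the hepatocyte covariate they were Timp1 (-0.48), Mmp9 (-0.19) and Adamts1 (-0.43) in mutant minus control atrium and Mmp9 (-0.30) in ventricle minus control atrium. With median centring they were Timp2 in mutant minus control atrium (0.01), Mmp2 in ventricle minus control atrium (0.06) and Mmp9 in mutant atrium minus ventricle (-0.01). With the Y-linked covariate they were Mmp2 in ventricle minus control atrium (0.03), and Mmp9 (-0.10) and Adamts5 (0.07) in mutant atrium minus ventricle. With quantile normalisation they were Mmp2 in ventricle minus control atrium (0.01) and the probe sets 1437081_at in mutant minus control atrium (-0.04), 1416136_at (0.07) and 1456969_at (-0.06) in ventricle minus control atrium. The causes were not tested.

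Leaving out 1 array gave, for mutant minus control atrium, Timp1 -0.12 to 0.51, Timp2 -0.06 to 0.03, Mmp9 -0.03 to 0.29, Adamts1 -0.08 to 0.16, and the probe sets 1437081_at -0.04 to 0.05, 1448291_at -0.03 to 0.15, 1450658_at -0.07 to 0.19 and 1456969_at -0.08 to 0.02. For ventricle minus control atrium it gave Mmp2 -0.19 to 0.01, Mmp9 -0.01 to 0.16, and the probe sets 1416136_at -0.18 to 0.10, 1448291_at -0.15 to 0.09 and 1456969_at -0.02 to 0.08. For mutant atrium minus ventricle it gave Mmp9 -0.09 to 0.22, and the probe sets 1448291_at -0.02 to 0.22, 1440920_at -0.13 to 0.01, 1416572_at -0.03 to 0.09 and 1456404_at -0.16 to 0.06. None of these differences passed in the fit reported. Dim values, as for Mmp9, for Timp4 in the control atria (5.26 to 6.27) and for Mmp3 in the ventricles (5.12 to 6.67), limit what the arrays can show. So do those of Mmp7, Adamts12 and Adam8.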
